A study of Mus musculus with 12 samples.

Results

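The genes described here were Ptprm, Magi1, Pard3b, Amotl1, Dlc1, Nova1, Ric3, Nbea, Peg10 and Sgce, 10 of the 25904 genes listed. They were chosen by their levels: high in WT microglia, nearly lacking in WT macrophages, and still at 50% or more of the WT level in KO microglia. The values of those groups therefore describe the genes and were not tested. KO macrophages were the only group that the choice did not use. Microglia are macrophages that settle in the brain and spinal cord before birth and renew themselves there. KO cells were targeted for deletion of Tgfbr2, the gene of a TGF-beta receptor; TGF-beta is a cytokine known to maintain the identity of microglia.

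RNA was sequenced from sorted cells of C57BL/6 mice in 4 groups of 3 libraries. WT microglia came from Tgfbr2fl/fl mice with no Cre, and KO microglia from Cx3cr1CreER/+Tgfbr2fl/fl mice, in which tamoxifen activates a Cre made where the fractalkine receptor gene is expressed. WT and KO macrophages grew from bone marrow of these same genotypes, given to irradiated Cx3cr1CreER/+R26DTA/+ mice, whose own microglia make diphtheria toxin once Cre is active. All 4 groups carried floxed Tgfbr2 and had tamoxifen, 3 daily doses of 5 mg (from 6 weeks after the transplant in the marrow recipients), and were sorted 18 to 22 days later. WT cells were gated as low and KO cells as high for F4/80, and the CreER allele was in KO cells only, so deletion, gate and Cre allele cannot be told apart. Only the macrophages came from irradiated marrow recipients whose microglia made toxin, so cell origin cannot be told apart from that treatment. The labels call the samples biological, each a pool of 1 to 5 mice, so p-values measure how far pools differ.

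Values are normalized counts, that is, reads in a gene divided by the size factor of its library, and are given for replicates 1, 2 and 3 in that order, with mean ± SD (n = 3 libraries). The libraries held between 2615404 and 6364994 reads in genes, so that 1 read equalled 0.718 to 1.6 normalized counts. Tgfbr2 was lower in KO cells but far from 0, at 2898 ± 356 and 2193 ± 100 in WT and KO microglia and 3303 ± 267 and 2235 ± 209 in WT and KO macrophages; counts over the whole gene do not resolve the deleted exons. The defining microglial gene Sall1, a transcription factor gene, stood at 6360 ± 372 in WT microglia and 338 ± 15.1 in KO microglia. It was at 7.31 ± 4.69 and 11.5 ± 6.8 in WT and KO macrophages. Tmem119, a microglial surface marker, was at 5681 ± 613 in WT and 2.17 ± 0.695 in KO microglia. The cells labelled KO microglia thus lacked a marker that usually names them. Macrophages did not lack Tmem119, at 1655 ± 130 in WT and 306 ± 143 in KO. The Y-linked Ddx3y was high in all 3 KO microglia libraries (470 to 508) and in WT microglia replicate 3 (436). It was also high in WT macrophage replicate 3 (653) and KO macrophage replicate 2 (540), and at 8.9 or less in the other 6 libraries. Y-linked expression was thus not balanced between WT and KO microglia.

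Several of the 10 genes are known from cells that hold fast to their neighbours. Ptprm encodes a receptor tyrosine phosphatase whose outer part binds its like on the next cell. Magi1 and Pard3b encode scaffold proteins with PDZ domains at cell junctions, and Amotl1 a junction-bound angiomotin that can hold the Hippo pathway's coactivator YAP outside the nucleus. Dlc1 encodes a GTPase-activating protein found at focal adhesions. Nova1, Ric3 and Nbea are best known from neurons: Nova1 is a splicing factor, Ric3 a chaperone of nicotinic acetylcholine receptors, and Nbea (neurobeachin) a large protein of membrane traffic. Peg10, derived from a retroelement, and Sgce, epsilon-sarcoglycan of the dystrophin-linked membrane complex, are paternally expressed imprinted genes that lie next to each other.

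The RefSeq promoter table on GRCm38.p6 held 6 of the 10 genes (Pard3b, Nbea, Magi1, Amotl1, Nova1 and Ptprm), with 7 windows of 300 bases, since Magi1 had 2. The 3 shown are those whose start lay within 5 bases of the start of the gene in GENCODE release 21. They lie at the head of the genes with the longest span, the largest exon length and the highest level per kb among the 10. Each is the 250 bases before the start, 5′ to 3′ on the gene's own strand, with CG pairs in capitals: Pard3b at chr1:61638574-61638823 (plus strand), Nbea at chr3:56183702-56183951 (minus) and Ptprm at chr17:67354460-67354709 (minus).
Pard3b: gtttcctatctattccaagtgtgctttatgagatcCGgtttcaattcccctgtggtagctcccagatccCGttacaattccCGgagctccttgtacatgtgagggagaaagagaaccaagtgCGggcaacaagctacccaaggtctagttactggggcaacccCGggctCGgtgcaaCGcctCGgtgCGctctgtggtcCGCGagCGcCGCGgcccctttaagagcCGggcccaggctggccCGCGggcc
Nbea: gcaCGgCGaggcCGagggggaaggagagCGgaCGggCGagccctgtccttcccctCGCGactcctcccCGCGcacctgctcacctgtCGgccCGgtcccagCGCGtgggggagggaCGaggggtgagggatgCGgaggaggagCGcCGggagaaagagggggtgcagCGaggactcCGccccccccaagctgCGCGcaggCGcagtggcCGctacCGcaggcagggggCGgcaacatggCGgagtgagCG
Ptprm: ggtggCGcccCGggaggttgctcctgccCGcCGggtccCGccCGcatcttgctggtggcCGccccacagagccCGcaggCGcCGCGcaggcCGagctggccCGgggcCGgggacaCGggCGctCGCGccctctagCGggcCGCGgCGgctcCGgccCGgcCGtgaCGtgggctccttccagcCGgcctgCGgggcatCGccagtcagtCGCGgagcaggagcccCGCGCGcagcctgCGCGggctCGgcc
The Pard3b, Nbea and Ptprm windows held 26, 36 and 43 CG pairs in 300 bases, and 62.7%, 75.0% and 80.7% of their bases were G or C. Over all 32851 windows the medians were 7 CG pairs and 52.7%. The other windows held 7 and 8 CG pairs (Magi1), 21 (Amotl1) and 14 (Nova1), so 7 of 7 were at or above the median. Their RefSeq starts lay 370954 and 370227 (Magi1), 30056 (Amotl1) and 162 (Nova1) bases from the GENCODE start of the gene. The Magi1 and Amotl1 windows therefore do not describe the head of those genes. On either strand, 2 of the 7 windows (Amotl1 and Nova1) held CAGAC, the box bound by Smad proteins, against 49.6% of all windows. 1 of the Magi1 windows held AGGAAGT, a PU.1 motif (9.35% of all windows), and Nova1 held GGAATG, a TEAD motif (14.7%). None of the 7 held TGACTCA, the AP-1 motif (5.2%), and the stretches printed above held none of the 4 motifs.

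Across the 10 genes, mean levels in WT microglia ran from 114 to 686, and mean levels in WT macrophages from 0.424 to 8.83. In all 10, every macrophage library of either genotype lay below every microglia library. The choice of genes used all of these groups except KO macrophages, and the share over all genes was not counted. Nothing is read from this number. The WT macrophage mean was at most 2% of the WT microglia mean in 8 of the 10, with 1 to 27 reads per gene summed over the 3 WT macrophage libraries. KO microglia stood between 0.527 times (Sgce) and 3.94 times (Dlc1) their WT level, with a median ratio of 0.714. The libraries of WT and KO microglia did not overlap for 7 of the 10 genes, 2 with KO higher and 5 with KO lower, beside 55.2% of all tested genes without overlap; the choice of genes used this contrast. Bulk RNA does not show whether a lower level came from fewer cells with the transcript or from less of it per cell, which cannot be told apart here.

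**Figure D1:**
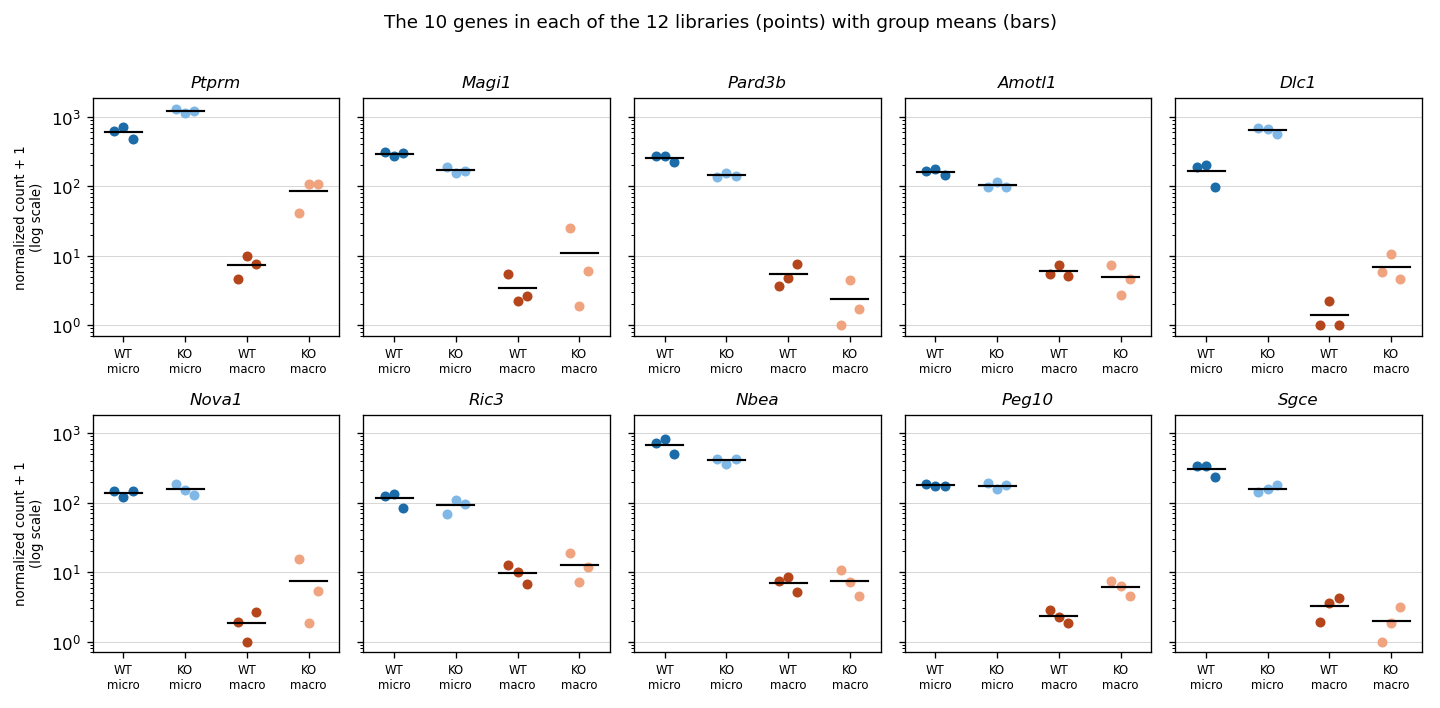
Normalized counts (plus 1, log scale) of the 10 genes in each of the 12 libraries; points are libraries and bars group means. All macrophage points lie below all microglia points in every panel, a contrast that the choice of genes used in part. The KO macrophages of Ptprm lie at 40 to 107, above the WT macrophages at 3.64 to 8.9.

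Among the junction genes, Ptprm (ENSMUSG00000033278, GRCm38 chromosome 17, 66666947 to 67354457, minus strand) had 623, 716 and 486 normalized counts in the WT microglia libraries and 1286, 1150 and 1228 in the KO microglia libraries. WT macrophages held 3.64, 8.9 and 6.58, and KO macrophages 40, 107 and 106. All KO libraries of both cell origins were above the WT libraries of the same origin. KO microglia averaged 1222 ± 68.3 against 609 ± 116, a ratio of 2.01.

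The scaffold gene Magi1 (ENSMUSG00000045095, chromosome 6, 93675455 to 94283917, minus) was at 311, 269 and 304 in WT microglia and at 188, 156 and 163 in KO microglia, a ratio of 0.573. Macrophages were at 4.55, 1.27 and 1.65 (WT) and at 24, 0.873 and 5.03 (KO). The KO macrophage mean of 9.97 ± 12.3 rested on replicate 1. Pard3b (ENSMUSG00000052062, chromosome 1, 61638824 to 62642284, plus) was at 269, 276 and 224 in WT microglia and at 134, 153 and 142 in KO microglia, a ratio of 0.559. Its macrophage values were 2.73, 3.81 and 6.58 (WT) and 0, 3.49 and 0.718 (KO), from 14 and 5 reads. Pard3b shares 4.43% of its exon bases with Pard3bos1 on the opposite strand, and whether counting used strand is not given in the sources used here, so reads there cannot be assigned. Ric3 and Nbea share 1.74% and 3.33% of their exon bases with genes on the opposite strand, and Ptprm and Nova1 5.18% and 3.54% with genes on the same strand.

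Amotl1 (ENSMUSG00000013076, chromosome 9, 14541966 to 14645056, minus) had 166, 175 and 146 in WT microglia against 98.2, 113 and 96.5 in KO microglia, with macrophages at 4.55, 6.35 and 4.12 (WT) and 6.4, 1.75 and 3.59 (KO). Its microglia groups did not overlap, with KO at 0.632 times WT, and its macrophage groups did. The transcripts of these 3 genes of intracellular junction proteins thus stood at 0.559 to 0.632 times WT in KO microglia, while that of the junction phosphatase was above WT.

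Dlc1 (ENSMUSG00000031523, chromosome 8, 36567751 to 36953143, minus) had the highest ratio of the 10. WT microglia held 186, 204 and 98.3 and KO microglia 689, 673 and 559, means of 163 ± 56.4 and 641 ± 70.9. WT macrophages had 1 read in all 3 libraries together, so the ratio of reads scaled by size factors, WT microglia over WT macrophages, was 500 with an exact 95% counting interval of 89.3 to 19791. KO macrophages were at 4.8, 9.6 and 3.59, from 19 reads, which is 0.936% of the KO microglia mean. Such an interval covers the error of counting alone, since these reads carry no molecular identifiers and are not independent molecules.

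Of the genes shared with neurons, Nova1 (ENSMUSG00000021047, chromosome 12, 46694517 to 46818929, minus) was at 145, 121 and 145 in WT microglia and at 187, 150 and 128 in KO microglia. These groups overlapped, at means of 137 ± 13.9 and 155 ± 29.6. WT macrophages were at 0.91, 0 and 1.65, from 3 reads, and the ratio of WT microglia over them was 143 with an exact 95% counting interval of 48.7 to 698. KO macrophages were at 14.4, 0.873 and 4.31, with replicate 1 well above the others.

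Ric3 (ENSMUSG00000048330, chromosome 7, 109034312 to 109083331, minus) was the least restricted of the 10. Microglia held 124, 132.7 and 83.8 (WT) and 67.8, 110 and 93.2 (KO), and macrophages 11.8, 8.9 and 5.76 (WT) and 17.6, 6.11 and 10.8 (KO). The groups of each cell origin overlapped, and WT macrophages reached 7.77% of the WT microglia mean. Nbea (ENSMUSG00000027799, chromosome 3, 55625195 to 56183701, minus) had the highest WT microglia mean, 686 ± 167, with 731, 825 and 501 by library. KO microglia were at 430, 364 and 426, a ratio of 0.593 without overlap. Macrophages were at 6.37, 7.63 and 4.12 (WT) and 9.6, 6.11 and 3.59 (KO), from 18 reads in each group and at 0.881% and 1.58% of the microglia of their genotype.

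Since these 3 genes are also expressed by neurons, they were set beside a list of 14 neuronal markers that holds none of them. The summed level of Nova1, Ric3 and Nbea was 1001, 1078 and 730 in WT and 684, 624 and 647 in KO microglia, and 11.5 to 41.6 across the macrophage libraries. The marker sum went the other way in microglia, from 47.6 to 82.5 in WT and 191 to 253 in KO, with Gad2 and Syt1 at 0 in WT microglia. In macrophages it was 72.8 to 86.4 in WT and 150 to 222 in KO. Of the 9 neuronal markers tested with limma, 7 rose in KO microglia and 4 in KO macrophages, against 21.9% and 16.0% of all tested genes. WT macrophages thus had a neuronal marker sum that overlapped that of WT microglia, with 11.5 to 19.1 counts of the 3 genes together.

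Marker sums of other cells were set beside them as well. Astrocyte markers summed to 57.3 to 129 in WT microglia, with every KO microglia library higher and the highest at 305, and to 49.2 to 73.7 and 152 to 201.7 in WT and KO macrophages. Endothelial markers, from a cell type that is known to express Ptprm, summed to 197 to 313, 102 to 134, 99.1 to 108 and 126 to 203 in the same order. The endothelial marker Pecam1 alone averaged 179, 27.8, 13.3 and 103 in that order, and it met the cut-offs for microglia-restricted genes set below. This 1 gene thus made up much of the endothelial sum in WT microglia. Of 5 endothelial markers tested with limma, 0 rose and 1 fell in KO microglia (21.9% and 20.6% of all tested genes). In KO macrophages 1 rose and 1 fell (16.0% and 15.4%). Mural and fibroblast markers summed to at most 16.5 in any library. The oligodendrocyte sum was 433 to 435 in WT microglia and 509 to 588 in KO microglia, and 343 to 370 and 389 to 680 in WT and KO macrophages. Monocyte markers summed to 60.8 to 79.9 and 839 to 917 in WT and KO microglia, and 320 to 359 and 1622 to 2076 in WT and KO macrophages. The part of these cells in the values of the 10 genes was not tested.

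**Figure D2:**
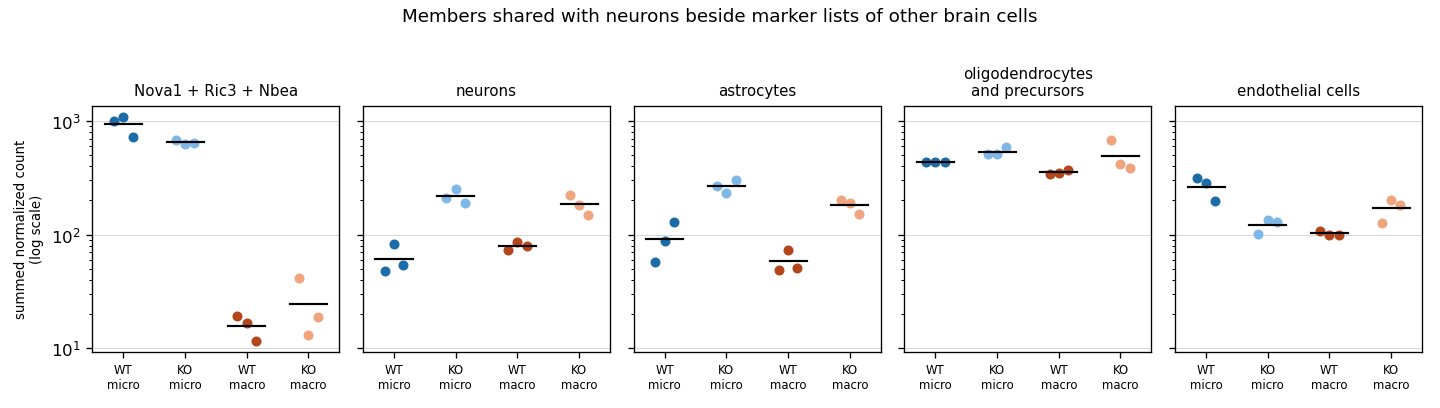
Summed normalized counts (log scale) of Nova1, Ric3 and Nbea and of 4 marker lists in each library; points are libraries and bars group means. The 3 genes sum to 730 to 1078 in WT microglia and 11.5 to 19.1 in WT macrophages, while neuronal markers sum to 47.6 to 82.5 and 72.8 to 86.4 in these groups.

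Peg10 and Sgce start 99 bases apart on opposite strands of chromosome 6, so each is transcribed away from the other. Peg10 (ENSMUSG00000092035, 4747306 to 4760517, plus) was at 187, 174 and 174 in WT microglia and at 192, 156 and 178 in KO microglia, overlapping groups with a ratio of 0.985. Sgce (ENSMUSG00000004631, 4674350 to 4747207, minus) was at 340, 331 and 233.9 in WT microglia and at 140, 159 and 178 in KO microglia, without overlap and with a ratio of 0.527. Within each library, Sgce stood at 1.82, 1.9 and 1.35 times Peg10 in WT microglia and at 0.73, 1.02 and 1 times in KO microglia. The neighbours therefore did not stand in the same proportion to WT after deletion, a description that rests on values the choice of genes used. In macrophages Peg10 was at 1.82, 1.27 and 0.823 (WT) and 6.4, 5.24 and 3.59 (KO), and Sgce at 0.91, 2.54 and 3.29 (WT) and 0, 0.873 and 2.15 (KO).

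Compared per kb of exon, Ptprm was the most abundant of the 10 in WT microglia, at 68.9 ± 13.1 normalized counts per kb. Its libraries lay above those of all others. The rest formed an order in which the libraries of each gene overlapped those of the next: Sgce (28.4), Magi1 (27.9), Peg10 (26.7), Nbea (21.9), Pard3b (19.5), Amotl1 (16.1), Nova1 (15.7), Ric3 (13.3) and Dlc1 (11.1). In KO microglia, Ptprm (138 ± 7.74), Dlc1 (43.6 ± 4.82) and Peg10 (26.3 ± 2.73) each stood clear of the gene below. Nova1 (17.7), Magi1 (16.0), Sgce (15.0), Nbea (12.97), Pard3b (10.9), Ric3 (10.6) and Amotl1 (10.2) followed, each overlapping the next. Dlc1 thus went from the lowest of the 10 to the second place.

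A single library moved several of these values. WT microglia replicate 3 was the lowest of its group for 8 of the 10 genes, against 38.2% of all tested genes, and it was the WT microglia library with high Ddx3y. Without it the KO to WT ratio was 3.29 for Dlc1, 1.82 for Ptprm, 0.523 for Nbea, 0.526 for Pard3b and 0.474 for Sgce, so that Sgce no longer met the threshold of 0.5. Sgce was also under it, at 0.497, without KO microglia replicate 3. KO macrophage replicate 1, the library with the fewest reads, was the highest of its group for 6 of the 10 genes, against 39.4% of all tested genes.

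The KO and WT macrophages were then set side by side with limma, with Benjamini-Hochberg adjustment over 12519 tested genes and a threshold of 0.05. The low WT macrophage level was part of the choice, which favours a rise, and all 10 genes passed the filter on low values through their microglia libraries. The calls are therefore given as a description, and nothing is read from their number. Of the 10, 4 were called higher in KO macrophages (Ptprm, Dlc1, Peg10 and Nova1) and 1 lower (Pard3b), beside 16.0% of all tested genes higher and 15.4% lower (31.4% in either direction). The libraries of the macrophage groups did not overlap for 3 of the 10 (Ptprm, Dlc1 and Peg10), beside 45.2% of all tested genes.

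Ptprm had the largest difference of the 10 on the log2 scale, a log2 change of 3.47 ± 0.32 (SE). It had 19 reads in the 3 WT macrophage libraries together and 295 in the 3 KO libraries, a scaled ratio of 15.2 with an exact 95% counting interval of 9.57 to 25.6. Even so, KO macrophages held 6.9% of the KO microglia mean. Dlc1, Peg10 and Nova1 had few reads, 1 and 19, 4 and 15, and 3 and 16 in WT and KO macrophages. Their scaled ratios of reads were 18.6 for Dlc1, 3.68 for Peg10 and 5.23 for Nova1. The exact 95% counting intervals were 2.96 to 774 for Dlc1, 1.17 to 15.2 for Peg10 and 1.5 to 28 for Nova1. By this ratio Dlc1 stood above Ptprm, with a far wider interval. A log2 change at such levels depends on the pseudocount of 1, and so does the order of the 2 genes. The call of Nova1 was lost when any of 10 of the 12 libraries was left out.

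Pard3b had 14 reads in WT and 5 in KO macrophages, a scaled ratio of 0.35 with an exact 95% counting interval of 0.0987 to 1.03, which includes equal levels. Its macrophage means were 4.38 ± 1.99 and 1.4 ± 1.84 with overlapping libraries, and its call was lost with a pseudocount of 8, with voom, in a fit of the macrophage groups alone, and without WT macrophage replicate 3 or KO macrophage replicate 1 or 3. With voom weights on the reads, Ptprm alone was called of the 10. The other 5 genes were not called, with log2 changes of 1.03 ± 0.64 for Magi1, -0.77 ± 0.40 for Sgce, -0.39 ± 0.32 for Amotl1, 0.29 ± 0.35 for Ric3 and 0.03 ± 0.29 for Nbea. In KO macrophages 2 of the 10 genes had a mean of at least 10, Ptprm (84.3 ± 38.4) and Ric3 (11.5 ± 5.78). In WT macrophages, where the choice required low levels, it was 0 of 10. Ric3 was at 8.83 ± 3.04 there, with overlapping libraries.

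Sall1 was set beside these values as a gene that defines microglia. WT macrophages held 11.8, 7.63 and 2.47 and KO macrophages 19.2, 8.73 and 6.46, which was 0.115% of the WT microglia mean and 3.39% of the KO microglia mean. The 10 genes were at 0.261% to 7.77% of WT microglia in WT macrophages and at 0.634% (Sgce) to 12.7% (Ric3) of KO microglia in KO macrophages. The low end moved with single libraries: Sgce was at 0.274% without KO macrophage replicate 3 and 0.951% without replicate 1, and Pard3b, at 0.981% over all libraries, was at 0.251% without replicate 2. Sall1 itself did not pass the test between macrophage groups (log2 change 0.64 ± 0.39, adjusted p = 0.222). The part of microglia left in the recipients in the macrophage values was not tested.

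To place the 10 genes among microglia-restricted genes, cut-offs were set afterwards to put numbers on the wording of the choice. Of all genes, 98 had a WT microglia mean of at least 100 and a WT macrophage mean of at most 10% of it. In KO microglia, 78 of the 98 were under 0.5 of their WT level and 51 under 0.1, with a median ratio of 0.0809. The other 20 were the 10 genes described here and 10 more: Gabbr1 (0.571), Eya4 (0.576), Slc12a2 (0.587), Arhgap32 (0.602), Adgra3 (0.608), P3h2 (0.895), Cdc42bpa (1.0), Nr3c2 (1.06), Bmpr1a (1.14) and Cacna1a (4.13). Just under the threshold were Nid2 at 0.499, Prox1 at 0.462 and Tiam1 at 0.455, and just inside it was Sgce at 0.527. The 30 homeostatic microglia genes measured, a list of genes linked to resting microglia, had a median ratio of 0.0489, and 4 of the 30 were at 0.5 or above. That list also holds genes of the TGF-beta pathway itself, such as Tgfbr1 and Smad7.

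**Figure D3:**
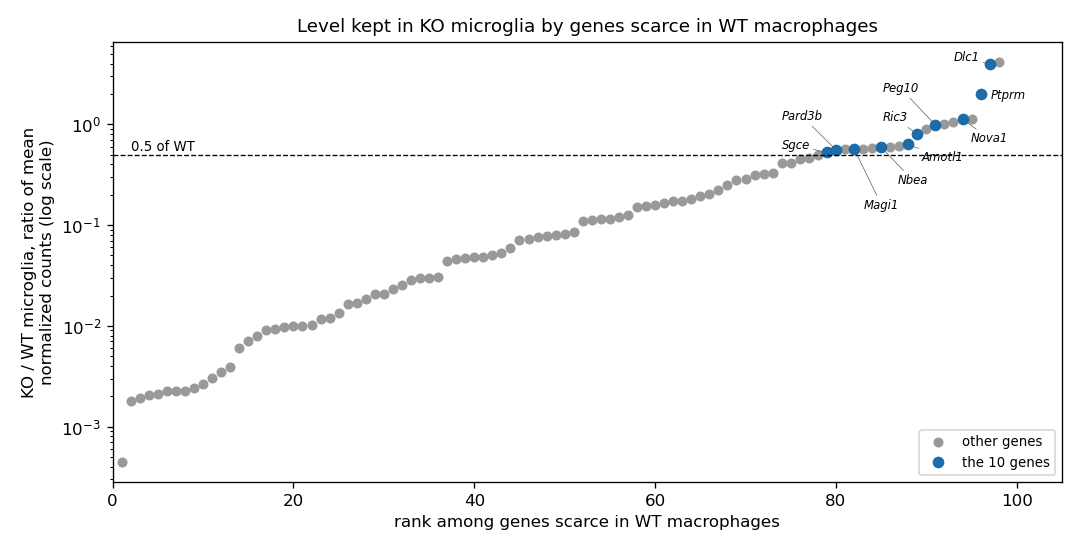
Ratio of the KO to the WT microglia mean (log scale) for 98 genes with a WT microglia mean of at least 100 and a WT macrophage mean of at most 10% of it, in rank order; blue points are the 10 genes and the dashed line is a ratio of 0.5. The 10 genes lie between 0.527 and 3.94, while 51 of the 98 genes lie under 0.1.

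Cacna1a, a subunit of the P/Q-type calcium channel of neurons, had a pattern like that of Dlc1. Microglia held 233.5, 259 and 95.2 (WT) and 916, 817 and 695 (KO), and macrophages 4.55, 0 and 6.58 (WT) and 104, 29.7 and 49.6 (KO). As for Dlc1, WT microglia replicate 3 was the lowest library of its group. Bmpr1a, a type I receptor for bone morphogenetic proteins, stood in microglia at 219, 273 and 249 (WT) and 260, 266 and 319 (KO). It had 3 reads in WT and 4 in KO macrophages, means of 1.0 and 1.06. Between the macrophage groups Bmpr1a did not pass the test (log2 change -0.08 ± 0.34, adjusted p = 0.885).

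Genes like the mean profile of the 10 were sought among tested genes with a WT microglia mean of at least 100. Symbols made of Gm and digits or ending in Rik were left out. The most like in log2 values over the 12 libraries were, by Pearson r and given as a description, Hpgd (0.989), Cdc42bpa (0.987), P3h2 (0.986), Bmpr1a (0.985), Lamb2 (0.984), Osbpl11 (0.976), Prox1 (0.973), Tfpi (0.972), Tacc1 (0.965) and Slc12a2 (0.963). The 10 genes themselves had r from 0.919 (Ptprm) to 0.994 (Peg10) with that mean, of which each is a part. All points share their libraries and depths, and 4 groups carry most of the variation. Likeness of shape did not require scarcity in macrophages: Hpgd, which encodes a prostaglandin-degrading enzyme, averaged 975 and 1048 in WT and KO microglia but 499 and 535 in WT and KO macrophages.

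The choice did not use gene length, and the 10 genes were long. Their annotated span, from first to last base, had a median of 255 kb, from 13.2 kb for Peg10 to 1003 kb for Pard3b, and 5 of the 10 were over 300 kb (Pard3b, Ptprm, Magi1, Nbea and Dlc1). Over all tested genes the median span was 21.3 kb and 1.96% were over 300 kb; among tested genes with a WT microglia mean of at least 100 these were 32.3 kb and 2.35%. The 10 genes at or above 0.5 that are not part of the list had a median span of 149.4 kb, with 60.0% over 100 kb and 10.0% over 300 kb. The 78 restricted genes under 0.5 had a median of 59.5 kb, with 30.8% over 100 kb and 15.4% over 300 kb, so that the order of these groups differed between the cut-offs. Long genes were among the lost ones too, such as Csmd3 with 1211 kb at a ratio of 0.00226 and Nav3 with 775 kb at 0.00206, both named after their values were seen. How many of the counted reads came from introns is not given in the sources used here.

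**Figure D4:**
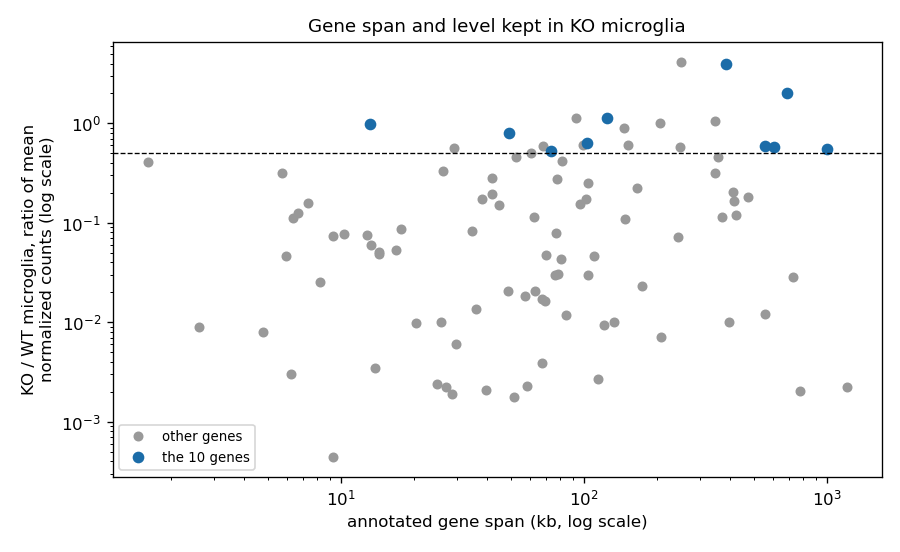
Ratio of the KO to the WT microglia mean against annotated gene span (kb), both on log scales, for the same 98 genes; blue points are the 10 genes and the dashed line is a ratio of 0.5. Of the 10 genes, 7 span over 100 kb, against 30.8% of the genes below the line.

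Relatives and partners of the 10 genes were counted next, from lists drawn up with earlier results of these data known and holding none of the 10. In KO microglia, 21 of the 88 relatives tested were higher and 28 lower, against 21.9% higher and 20.6% lower among all tested genes (42.5% in either direction). In KO macrophages 15 were higher and 21 lower (16.0% and 15.4% of all tested genes, 31.4% in either direction). Between WT macrophages and WT microglia 19 were higher and 30 lower in macrophages (19.2% and 20.2% of all tested genes, 39.4% in either direction). Between KO macrophages and KO microglia 9 were higher and 13 lower (5.45% and 5.05%, 10.5% in either direction). The comparisons share groups, so these counts are not independent of each other. The effect of deletion differed between macrophages and microglia for 25.8% of all tested genes by limma's test of that difference.

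Genes of adherens and tight junctions were mostly lower in KO microglia: of 13 tested, 9 fell and 3 rose, with a median log2 change of -0.83. Tjp1, the scaffold ZO-1, went in microglia from 2435, 2646 and 2251 to 24.6, 29.5 and 30.5 with deletion (log2 -6.39 ± 0.35, adjusted p = 7.09e-10). F11r, the junctional adhesion molecule JAM-A, went from 1466, 1404 and 1277 to 4.91, 1.97 and 3.22 (-8.36 ± 0.43, adjusted p = 3.39e-10). In macrophages, where 4 of the list fell and 1 rose, Tjp1 went from 1466 ± 163 to 203 ± 129 (-3.09 ± 0.35, adjusted p = 8.07e-06) and F11r from 810 ± 26.2 to 107 ± 67.2 (-3.21 ± 0.43, adjusted p = 4.3e-05). Jam2, another adhesion molecule of this family, was restricted to WT microglia at 585, 416 and 351; KO microglia had 3 reads of it, a ratio of 0.00198 with an exact 95% counting interval of 0.000409 to 0.00581. Tjp1 and F11r, unlike Magi1, Pard3b and Amotl1, were abundant in WT macrophages.

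Paralogs of the junction members were looked at next. Ptprk, Ptprt and Ptpru, the other phosphatases of the Ptprm family, did not reach the filter, and Ptprk was at 2.11 or less in every group mean. Pard3, the paralog of Pard3b, averaged 2.22 to 3.69, Amot 1.41 to 8.88, and Yap1, the coactivator that angiomotins hold, 1.07 to 1.3. The angiomotin gene Amotl2 averaged 14.1 and 20.6 in WT and KO microglia and 12.6 and 6.47 in WT and KO macrophages. By limma it was lower in KO macrophages than in KO microglia (log2 -1.65 ± 0.42, adjusted p = 0.019). Its WT and KO groups did not pass the test in either origin (adjusted p = 0.336 in microglia and 0.0949 in macrophages). Of 2 Magi1 paralogs tested 1 rose and 1 fell in KO microglia. The latter, Magi3, went from 149.5 ± 25.8 to 59.2 ± 13.1 (log2 -1.33 ± 0.19, adjusted p = 4.44e-05) and in KO macrophages from 56.3 ± 3.42 to 29.6 ± 2.54 (-0.91 ± 0.19, adjusted p = 0.00245). Of 9 polarity genes tested 1 rose and 1 fell in KO microglia; Prkci, an atypical protein kinase C, rose by 0.34 ± 0.12 (adjusted p = 0.0256). Of 9 angiomotin and Hippo genes 2 rose and 2 fell, among them the kinase scaffold gene Sav1, from 148 ± 2.68 to 285 ± 5.61, and the kinase gene Lats2, from 405 ± 32.7 to 305 ± 31.

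Of the relatives of Dlc1, 1 of 6 tested rose and 2 fell in KO microglia. The paralog Stard8 went from 330, 370 and 269 in WT to 1239, 1158 and 1111 in KO microglia (log2 1.86 ± 0.14, adjusted p = 4.06e-08). It also rose in macrophages, from 351, 320 and 395 to 1050, 701 and 748 (1.21 ± 0.14, adjusted p = 1.4e-05), and did not pass the test between WT macrophages and WT microglia (0.14 ± 0.14, adjusted p = 0.463). The remaining paralog, Stard13, named after its values were seen, had the opposite restriction to Dlc1: 3.27 ± 3.67 and 2.77 ± 1.03 in WT and KO microglia, and 312 ± 18.4 and 191 ± 13.8 in WT and KO macrophages. Tns1 and Tns3, which encode focal adhesion proteins of the tensin family that bind Dlc1, fell from 1032 ± 101 to 500 ± 45.4 and from 1941 ± 57.2 to 1465 ± 12.1 in KO microglia.

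**Figure D5:**
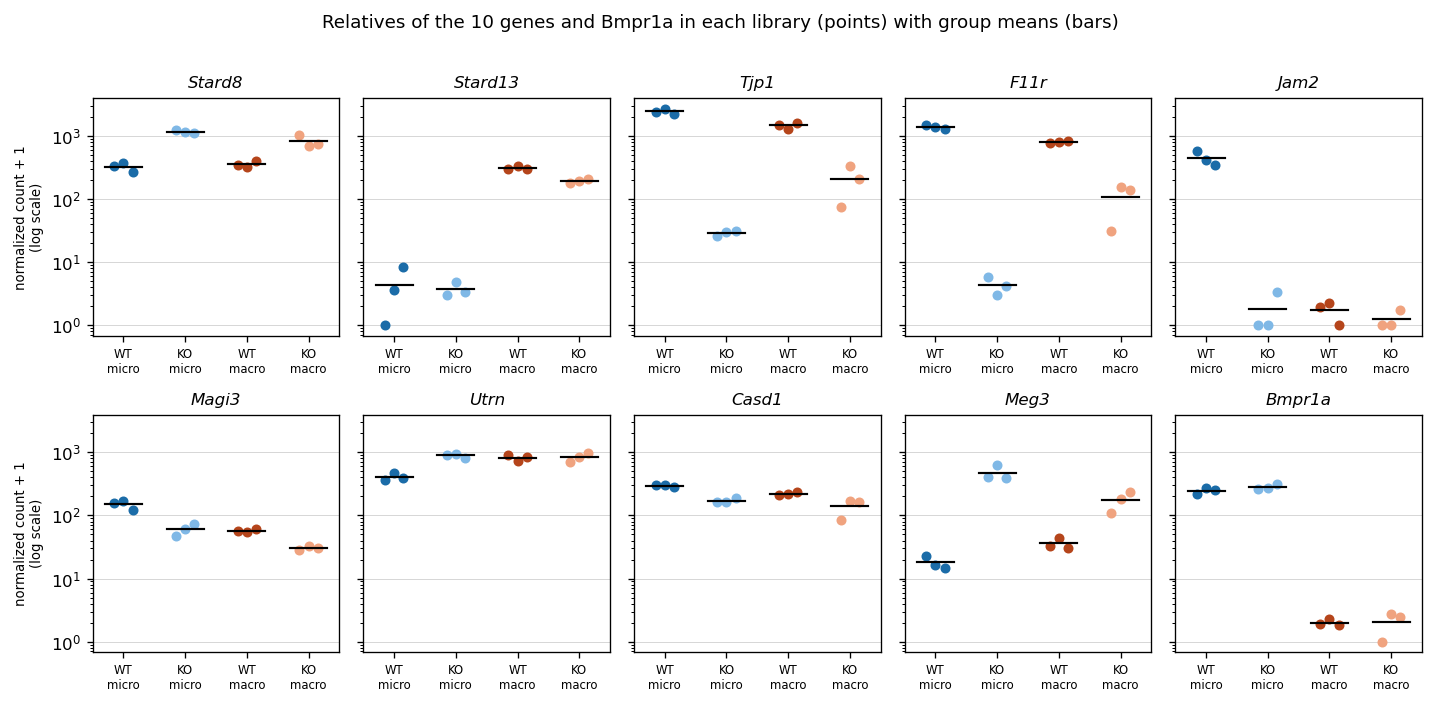
Normalized counts (plus 1, log scale) of 9 relatives of the 10 genes and of Bmpr1a in each of the 12 libraries; points are libraries and bars group means. Dlc1's paralogs Stard8 and Stard13 differ in pattern, Tjp1 and F11r are lower in KO cells of both origins, and Bmpr1a is near 1 in all macrophage libraries and at 219 or more in all microglia libraries.

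Among the BEACH-domain relatives of Nbea, 2 of 8 rose and 3 fell in KO microglia. Nbeal2 fell from 545 ± 24.1 to 95.3 ± 6.44 (log2 -2.50 ± 0.12, adjusted p = 2.23e-10) and Lrba from 872 ± 96.5 to 311 ± 13.1 (-1.48 ± 0.17, adjusted p = 4.24e-06). Wdfy3, a large adaptor of selective autophagy, rose from 2772 ± 146 to 4476 ± 112. Of 8 splicing relatives of Nova1, 2 rose and 2 fell, and Nova2 averaged 0.933 in WT and 9.65 in KO microglia. Ptbp1, a splicing repressor, fell from 548 ± 23.1 to 366 ± 13.6. None of the 4 genes in the table from a list of receptor subunits and another chaperone that work with Ric3 reached the filter.

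Of the other genes of the dystroglycan complex 5 were tested: 4 rose and 0 fell in KO microglia, and 3 rose and 0 fell in KO macrophages. Utrn, encoding the dystrophin relative utrophin, rose in microglia from 410 ± 55.5 to 889 ± 61 (log2 1.12 ± 0.12, adjusted p = 2.28e-06) and stood at 820 ± 88.2 and 838 ± 131 in WT and KO macrophages. Sgcb, beta-sarcoglycan, rose from 85.1 ± 11.9 to 151 ± 19.5 in KO microglia (0.82 ± 0.17, adjusted p = 0.000956). None of the 5 fell between WT microglia and WT macrophages, where Sgce stood at 0.745% of its WT microglia level.

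Around the imprinted pair, 3 of 5 tested neighbours of the cluster fell in KO microglia and 0 rose, and 3 fell and 0 rose in KO macrophages. Casd1, the coding gene next to Sgce at a gap of 31 kb, was at 300, 301 and 279 in WT microglia and at 164, 163 and 186 in KO microglia (log2 -0.78 ± 0.20, adjusted p = 0.00456), with macrophages at 218.4 ± 11.5 and 138 ± 47.2. Ppp1r9a, next to Peg10 at a gap of 142 kb, was at 1858 ± 231 and 1640 ± 77.4 in WT and KO microglia (-0.17 ± 0.13, adjusted p = 0.313) and at 1056 ± 57.8 in WT macrophages. Neither neighbour shared the near absence of Peg10 and Sgce from macrophages. The paraoxonase gene Pon3 fell from 309 ± 45.4 to 79.7 ± 3.05 in KO microglia. Of 2 tested relatives of Peg10 that derive from retroelements 1 rose and 0 fell. Of 21 imprinted genes at other places 4 rose and 5 fell in KO microglia. Meg3, a maternally expressed long noncoding RNA, went from 22, 15.5 and 13.5 to 400, 623 and 395 (log2 4.71 ± 0.28, adjusted p = 1.54e-09) and in macrophages from 34.9 ± 7.28 to 176 ± 64; it is abundant in neurons, whose markers were higher in the same groups as given above, and their part in its rise was not tested.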

How the data were processed

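RNA-seq libraries of 12 pools (3 in each of 4 groups) were prepared with a strand-keeping kit for picogram inputs of total RNA, per the labels' protocols. The table deposited by the authors holds log2 values; bcl2fastq, CASAVA, STAR and build GRCm38 are named per the submitters' processing notes, while which counter, annotation and strand setting made the counts is not given in the sources used here. When the log was undone and 1 subtracted, 100% of values were whole multiples of the smallest step of their library (within 0.01 reads), so the deposited log2 values are log2(count / size factor + 1), and reads could be read back.

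GENCODE release 21 on GRCm38 gave symbols and positions (25730 identifiers matched, 174 not). The 12519 genes that reached 10 normalized counts in 3 or more libraries were tested (13385 did not) with limma 3.58.1 in R 4.3.3, with a mean-variance trend, 1 mean per group, 8 residual degrees of freedom, Benjamini-Hochberg adjustment and a threshold of 0.05. The pipeline was tested on simulated data, with changes placed only in genes above the macrophage levels of most of the 10 genes. That test does not cover calls at such low levels. Log2 changes understate those of low genes. Alternatives were a pseudocount of 8, no filter, scaling by total reads, voom on reads, a fit of the 2 groups compared, Ddx3y as a covariate, and leaving out each library. Ratios of reads have exact 95% binomial intervals.

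The members and lists were chosen with earlier results of these data known. Named beside the 10 genes were, per list of relatives, up to 3 genes called in KO against WT microglia with the largest change and a mean of at least 100 in the higher group; the 10 genes most like the members' mean profile; the genes nearest the ratio of 0.5; the annotated neighbours of Peg10 and Sgce; and Sall1, Tmem119, Bmpr1a, Tgfbr2 and Ddx3y as markers and checks. Promoters are RefSeq's, on GRCm38.p6. A planned comparison of protein sequences was not run. Summaries used pandas 2.3.3 and scipy 1.17.1 under Python 3.11.15, and matplotlib 3.10.9 drew the plots.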

Additional observations from a re-analysis of the deposited data

Results flagged for a closer look

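For 14 of the 22 named relatives of the 10 genes, the effect of deletion differed between macrophages and microglia by a test of the difference itself (limma, Benjamini-Hochberg adjusted over all tested genes). Since the relatives were named for a large change in KO microglia, a share above the 25.8% called among all tested genes is not read as a result. Values are the log2 change in macrophages minus that in microglia.

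The junction genes differed most. The difference was 5.15 ± 0.61 (SE; adjusted p = 1.61e-05) for F11r and 3.30 ± 0.49 (adjusted p = 0.000157) for Tjp1, since both fell in each origin but less far in macrophages. It was 7.75 ± 0.79 (adjusted p = 3.51e-06) for Jam2, which had 2 reads in WT and 1 in KO macrophages, so that its difference is that of the fall in microglia and depends on the pseudocount.

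Among the relatives of Nbea and Dlc1, the difference was 1.90 ± 0.17 (adjusted p = 1.28e-06) for Nbeal2, 1.49 ± 0.14 (adjusted p = 2.29e-06) for Tns1, which fell in microglia and rose in macrophages (0.45 ± 0.10, adjusted p = 0.00385), and -0.66 ± 0.20 (adjusted p = 0.0277) for Stard8, whose rise was smaller in macrophages. Utrn had a difference of -1.10 ± 0.17 (adjusted p = 0.00027), with a log2 change of 0.02 ± 0.12 in macrophages. Lats2 differed by 0.71 ± 0.16 (adjusted p = 0.00441) and Ptbp1 by 0.43 ± 0.13 (adjusted p = 0.0269).

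Of the imprinted genes and their neighbours, Meg3 differed by -2.46 ± 0.39 (adjusted p = 0.000253), Gnas by 1.08 ± 0.15 (adjusted p = 7.88e-05), Zrsr1 by 0.69 ± 0.22 (adjusted p = 0.0312), and Pon3 and Pon2 by 0.76 ± 0.18 each (adjusted p = 0.00646 and 0.00682).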

How the results depend on the processing

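Of the 10 genes, 4 were called higher and 1 lower in KO macrophages. Voom on reads called 1 higher and 0 lower, a fit of only the macrophage groups 2 higher and 0 lower, and a pseudocount of 8 called 0 lower. Leaving out each library gave 3 to 5 higher and 0 to 1 lower, with 0 lower without WT macrophage replicate 3 or KO macrophage replicate 1. Ptprm was called under every alternative run (log2 2.59 to 3.93). Nova1 lost its call in 14 settings (adjusted p = 0.0504 to 0.257), Pard3b in 6 (0.0536 to 0.159), Peg10 with voom (0.0905) and in the fit of the macrophage groups (0.0559), and Dlc1 with voom (0.0849). Sgce gained a call without KO macrophage replicate 3 (log2 -1.17, adjusted p = 0.0295), and Magi1 without KO macrophage replicate 2 (1.93, adjusted p = 0.00752). The changes that did not pass the test reversed sign for Ric3, at -0.06 without KO macrophage replicate 1 (-0.06 to 0.64 over the libraries left out), and for Nbea (-0.27 to 0.34), at -0.03 scaled by total reads, -0.07 with voom, -0.04 with Ddx3y as a covariate, -0.18 without WT macrophage replicate 3 and -0.27 without KO macrophage replicate 1. The 13 relatives lower in KO macrophages than in KO microglia became 6 to 13 when each library was left out, with 7 and 6 without KO microglia replicate 1 and 2 and 8 without KO macrophage replicate 2. The cause of these shifts was not tested. The other counts of calls stayed within 1.5 times their value. The number of the 10 genes at a KO to WT ratio of at least 0.5 was 9 without WT microglia replicate 3 or KO microglia replicate 3 and 10 under each other setting. No paired analysis was possible because the library titles carry no shared replicate numbers, and the numbers used here follow the order of deposit. The macrophage values rest on 1 to 27 reads per gene in WT and 4 to 295 in KO macrophages, which limits every statement on them.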
